A study of Mus musculus with 6 samples.

Results

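Clusters of NOVA1 and NOVA2 tags that lay in introns just before an exon are described here. A cluster was taken when most of its nucleotides were intronic on its own strand in the GENCODE vM1 annotation, when its midpoint lay within 500 nt of an exon edge of the same gene, and when that nearest edge was the start of an exon, the 3' splice site. Clusters equally far from both kinds of splice site were left to the 5' splice site. The rule found 1295 clusters among 46579, of which 202 were among 9988 NOVA1 clusters (2.02%, 95% Wilson interval 1.76 to 2.32) and 1093 among 36591 NOVA2 clusters (2.99%, 2.82 to 3.17). They made up 5.02% of the 4022 NOVA1 clusters and 4.005% of the 27293 NOVA2 clusters in introns.

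NOVA1 and NOVA2 had been crosslinked to their RNAs by ultraviolet light in cortex of wild-type CD1 mice at embryonic day 18.5, recovered with an antibody and sequenced (HITS-CLIP), in 3 libraries per protein. No knockout or treated sample entered these lists. Each cluster carries a tag count, the number of unique sequenced fragments or the height of the peak, that the authors pooled over the libraries of that protein and did not scale to depth. No value per library could be computed, so no difference was set against the spread between replicates. Intervals cover counting error only, and clusters of the same gene are not independent. Where a ratio of shares is given, its 95% interval takes the gene as the unit.

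In the last stretch of an intron the splicing machinery recognises a branch point, a run of pyrimidines and the AG that ends the intron. Proteins that bind there can compete with or assist this recognition, so the sequence just before an exon is a place where inclusion of the exon is decided. NOVA proteins bind clusters of the tetramer YCAY (Y is C or U) through their KH domains. As background, NOVA binding before or in an alternative exon is known to go with skipping of that exon, and binding after it with inclusion.

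The YCAY content of the clusters can be seen in short stretches of them. The following windows of 30 nt are those with the most YCAY in the members of highest tag count, in members present in the NOVA2 list alone, and in members from genes known as NOVA targets, so they show the densest part of each cluster. They are mm9 sequence of the transcribed strand, 5' to 3', with T for U and YCAY in capitals. The Cntn2 window is chr1:134416062-134416091 on the minus strand, with its centre 260.5 nt before the exon and 9 overlapping YCAY, all TCAT in an unbroken run. The Chl1 window is chr6:103664211-103664240 on the plus strand, the Cep170 window chr1:178705570-178705599 on the minus strand, the Gria2 window chr3:80507126-80507155 on the minus strand and the Nrxn3 window chr12:90091078-90091107 on the plus strand. From NOVA2 members without an overlapping NOVA1 cluster come Macf1 (chr4:123063893-123063922, minus strand), Dock9 (chr14:121959453-121959482, minus strand) and Atp8a1 (chr5:68140766-68140795, minus strand). Cacna1b (chr2:24498482-24498511, minus strand) and Dab1 (chr4:104386148-104386177, plus strand) are the members from the list of known targets.
Cntn2: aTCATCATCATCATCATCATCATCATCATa
Chl1: CCACgagctgacgTCATtgcatTCATTCAT
Cep170: gCCACacgttttaTCACtaaCCACttTCAC
Gria2: tttagtgTCATtTCATttgtCCATttcttt
Nrxn3: tgTCACactctgggtccTCACatcTCATat
Macf1: ttcCCACtcccgtcCCATcTCACcCCATtg
Dock9: tCCATTCACagaaaTCATcagTCACcTCAC
Atp8a1: gCCACacaTCATCATCATCACCACCACCAC
Cacna1b: ctgacTCACgCCATccaaCCACCATacaat
Dab1: gTCATCATtaaacTCATaaatCCATgTCAT
The Cntn2 and Atp8a1 windows are repeat tracts, with 9 and 8 motifs. In Cep170 and Macf1 the 4 motifs stand apart with other bases between them, and in Chl1 the last 2 of the 4 adjoin. The Dab1 window, with 5 motifs, lies 64.5 nt before its exon, and the Cacna1b window, with 4, lies 118.5 nt before its exon. The Cep170 and Gria2 windows lie farther out, with centres 543.5 and 562.5 nt before their exons. These windows are beyond the distance limit set for cluster midpoints, although the midpoints of their NOVA2 clusters are within it. The other windows shown are within that limit, the farthest being Nrxn3 at 456.5 nt.

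The NOVA2 member with the most tags, and the second among NOVA1 members, lay before an exon of Cep170, which encodes a centrosomal protein. The NOVA2 cluster had 835 tags over 597 nt, and the NOVA1 cluster in the same place had 142 tags over 555 nt. Both were among the widest shown and ended less than 100 nt before a 477-nt exon (chr1:178704565-178705041) without an annotated skip. Next among the NOVA2 members came Gria2, which encodes a subunit of the AMPA receptor, with 719 tags and a midpoint 436 nt before a 199-nt exon. The NOVA1 cluster that overlapped it had 98 tags, but its midpoint lay more than 500 nt from the exon, so it was not a member. Closer to the same exon, a NOVA1 member of 13 tags overlapped a NOVA2 member of 41 tags. In Chl1, a cell adhesion molecule of the L1 family, 707 NOVA2 and 103 NOVA1 tags lay about 200 nt before a 162-nt coding exon (chr6:103664439-103664600) that is skipped in another annotated transcript. In Cntn2, the axonal adhesion molecule contactin 2, a 190-nt NOVA2 cluster of 700 tags and a 230-nt NOVA1 cluster of 95 tags both held the run of TCAT shown above. They lay before a 71-nt exon without an annotated skip. Nrxn3, a presynaptic neurexin, had the highest NOVA1 member, with 155 tags over 241 nt, and it overlapped a NOVA2 member of 611 tags over 166 nt. It reached into the next NOVA2 cluster, of 33 tags, and a cluster of 155 NOVA2 tags followed toward the start of the Nrxn3 exon. Each of the 5 highest NOVA2 members thus overlapped a NOVA1 cluster.

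**Figure D1:**
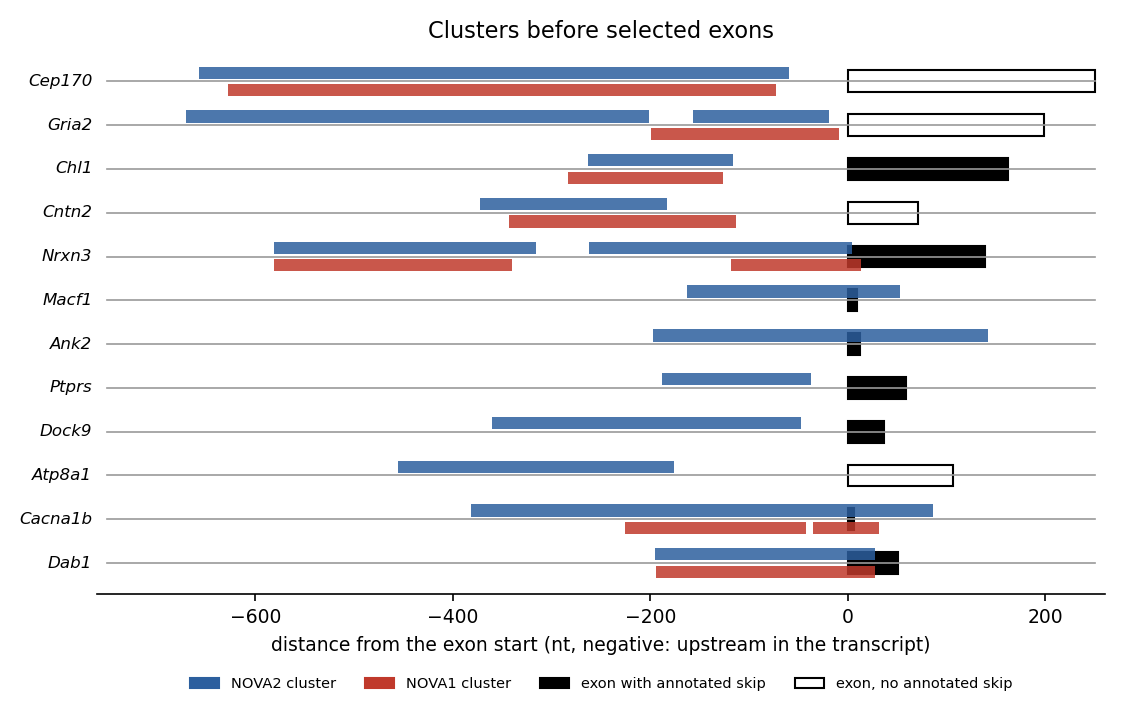
Members before 12 selected exons, drawn to scale along the distance from the exon start (nt, horizontal axis, negative values upstream). Each row is an exon with its gene name, blue bars are NOVA2 and red bars NOVA1 members before that exon, black boxes are exons with an annotated skip and white boxes exons without one, and exons are cut at 250 nt. The 2 lists overlap in Cep170, Gria2, Chl1, Cntn2, Nrxn3, Cacna1b and Dab1, while Macf1, Ank2, Ptprs, Dock9 and Atp8a1 have a NOVA2 member alone.

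Most members stood off from the splice site by more than the length of the polypyrimidine tract. The median distance from midpoint to exon was 197 nt in the NOVA1 list (quartiles 113 and 321) and 221 nt in the NOVA2 list (quartiles 130 and 347). The fullest 50-nt bin was 100 to 150 nt before the exon in both lists, with 35 NOVA1 and 184 NOVA2 clusters. In the last 50 nt there were 12 and 59. Clusters after exons, measured from the 5' splice site, peaked closer, with 36 NOVA1 and 236 NOVA2 clusters between 50 and 100 nt. Within 100 nt lay 160 of 1093 NOVA2 members (14.6%, 12.7 to 16.9) against 288 of 1326 NOVA2 clusters after exons (21.7%, 19.6 to 24.0), a ratio of 0.674 (0.567 to 0.802). In the NOVA1 list the shares were 18.3% of 202 and 21.9% of 215, a ratio of 0.838 (0.560 to 1.25), an interval that holds 1. A cluster that reached far into an exon would have been classed as exonic and is not a member, and the part of this in the low counts of the last 50 nt was not tested. At the outer limit, 13 NOVA1 and 87 NOVA2 members had midpoints 450 to 500 nt from the exon, and 12 and 67 intron clusters had midpoints 500 to 550 nt before it.

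**Figure D2:**
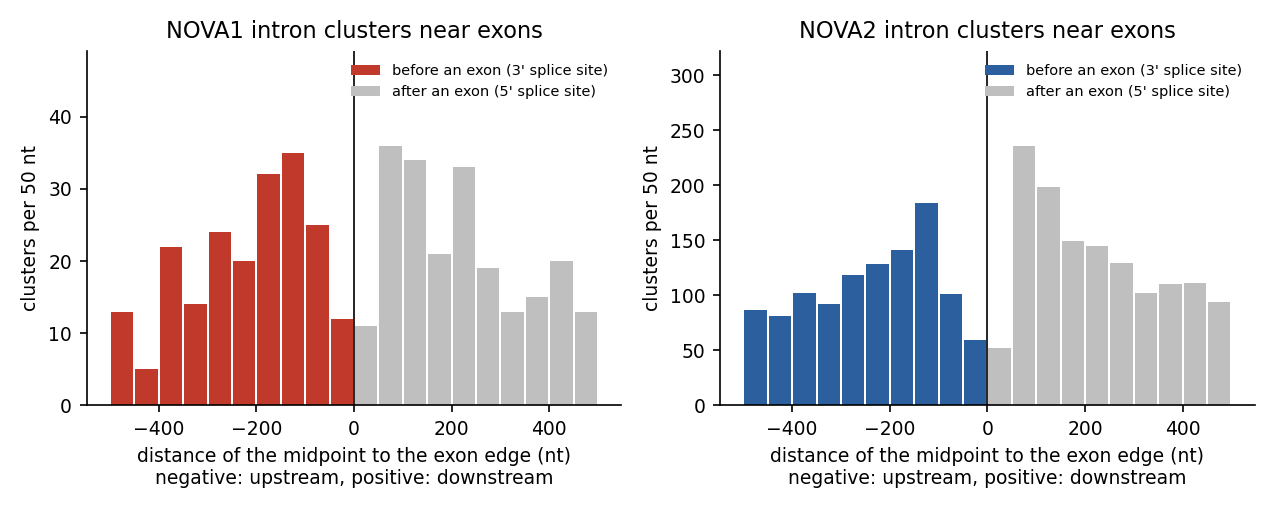
Number of intron clusters per 50 nt (vertical axis) by distance of the midpoint to the nearest exon edge (nt), for NOVA1 on the left and NOVA2 on the right. Coloured bars are the members before exons and grey bars clusters after exons. The members are most numerous 100 to 150 nt before the exon (35 and 184 clusters), and the clusters after exons 50 to 100 nt past it (36 and 236).

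Tag counts of NOVA1 members had a median of 15 (quartiles 12 and 22.75), the same median as NOVA1 clusters deep in introns. NOVA2 members had a median of 20 (quartiles 13 and 35) against 18 deep in introns. At least 50 tags were found in 197 of 1093 NOVA2 members (18.02%) and in 14.4% of the deep NOVA2 clusters, a ratio of 1.25 (1.10 to 1.43). For NOVA1 the corresponding shares were 4.46% and 4.71%, with a ratio of 0.945 (0.515 to 1.74). Clusters were of similar width, with a median of 114 nt for NOVA1 and 113 nt for NOVA2 members.

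Nearly all NOVA1 members lay where NOVA2 had a cluster. Of 202 NOVA1 members, 187 shared 1 or more nt of the same strand with a NOVA2 cluster (92.6%, 88.1 to 95.4), and among all NOVA1 intron clusters the share was 95.5%. Of 1093 NOVA2 members, 194 overlapped a NOVA1 cluster (17.7%, 15.6 to 20.1), and among all NOVA2 intron clusters 14.1% did. With at least 25 NOVA2 tags the share of members was 39.2% and that of deep NOVA2 clusters 34.3%. Relative to deep intron clusters the NOVA2 share was 1.29 times as high (1.12 to 1.47), and the NOVA1 ratio was 0.967 (0.926 to 1.01). The NOVA2 members with a NOVA1 partner were the taller ones, with a median of 71.5 tags against 16 for the 899 without. The NOVA2 list is the deeper of the lists and the threshold of 10 tags was the same in both, and the part of this in the NOVA2 members without a partner was not tested. By exon, 190 exon starts had a NOVA1 member and 1001 a NOVA2 member. Both proteins shared 171 of these, 90.0% of the NOVA1 and 17.1% of the NOVA2 exon starts, among 1020 in all. They lay in 813 genes, of which 154 had members of both lists.

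At shared members the NOVA2 count was almost always the higher one. There were 168 places where 1 NOVA1 and 1 NOVA2 member overlapped each other and nothing else. The NOVA1 count divided by the NOVA2 count there had a median of -2.00 on the log2 scale (quartiles -2.66 and -1.42). It was -1.85 at 182 pairs after exons and -2.05 at 3060 pairs deep in introns. As tags were not scaled, the level of this ratio holds the difference in depth between the lists as well as any in binding. NOVA1 had more tags than NOVA2 at 2 of the 168. It was likewise rare elsewhere in introns, at 3 of the 182 pairs after exons and 64 of the 3060 deep pairs. The 2 pairs before exons were Rmst, a long noncoding RNA of neural cells, with 34 NOVA1 and 15 NOVA2 tags, and Erbb2ip, a scaffold protein of cell junctions, with 14 and 10. At the other end was Kidins220, a membrane scaffold of neurotrophin signalling, with 14 NOVA1 and 304 NOVA2 tags (log2 ratio -4.44). It was followed by Arhgef10l, a guanine nucleotide exchange factor, with 11 and 205 tags, and Shank1, a postsynaptic scaffold, with 12 and 221. In Ptprz1, a receptor phosphatase, a NOVA2 cluster of 240 tags reached over the whole of a 21-nt exon. Its NOVA1 partner of 15 tags was centred 237.5 nt before that exon. These pairs were picked as the extremes of the ratio, and with 1 pooled value per protein their departure from the median has no error. Both lists start at 10 tags, and the lower count of each named pair was near that floor. Pairs exist only where both proteins reached it, so the ratios leave out the 899 NOVA2 members without a NOVA1 partner.

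**Figure D3:**
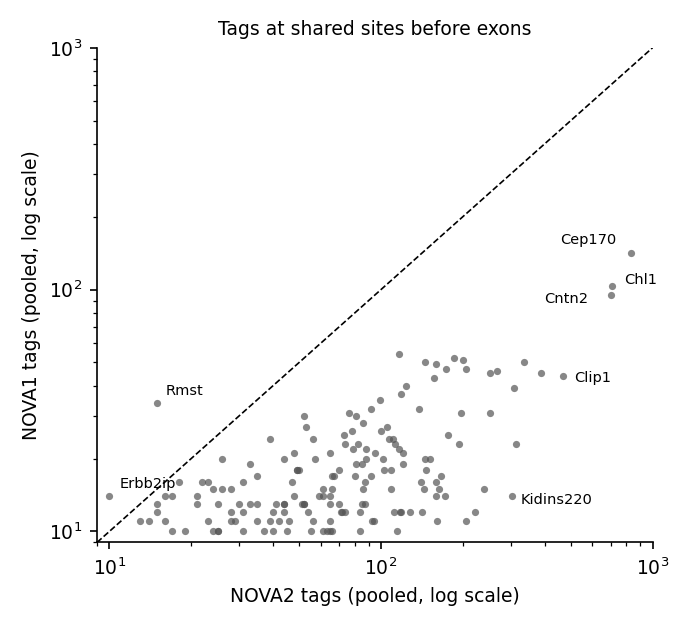
NOVA1 tags (vertical axis) against NOVA2 tags (horizontal axis), both pooled and on log scales, at the 168 places before exons where 1 member of each list overlapped. The dashed line marks equal counts. Only Rmst and Erbb2ip lie above it, and Cep170, Chl1 and Cntn2 have the most tags of both proteins.

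Of the 899 NOVA2 members without a NOVA1 partner, 5 had the most tags. Macf1, a crosslinker of microtubules and actin, had 146 NOVA2 tags over a 9-nt exon, and Ank2, which encodes ankyrin B, had 129 over a 12-nt exon. Ptprs, a presynaptic receptor phosphatase, followed with 123 tags before a 59-nt exon, Dock9, an exchange factor for Cdc42, with 116 before a 36-nt exon, and Atp8a1, a phospholipid flippase, with 113 before a 106-nt exon. The exons of Macf1, Ank2, Ptprs and Dock9 are annotated as skipped in some transcripts and that of Atp8a1 is not. The 15 NOVA1 members without a NOVA2 partner were low. The highest were Lrp8, a receptor for reelin, with 31 tags, the noncoding C130071C03Rik with 27, Bin1, a membrane-bending protein, and Ogt, the enzyme that adds O-GlcNAc, with 22 each, and Ap3d1, a subunit of the AP-3 adaptor, with 20. Of these 15 clusters, 5 had a NOVA2 cluster elsewhere within 1000 nt.

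YCAY was denser in the members than in both backgrounds tried. NOVA1 members had 46.6 YCAY starts per 1000 positions, against 17.9 in intron 200 to 500 nt farther upstream, a fold of 2.60 (2.27 to 2.97). NOVA2 members had 43.4 against 17.3, a fold of 2.51 (2.38 to 2.65). The flanks lie outside the pyrimidine-rich end of the intron, so a second comparison was made with exons of the same genes that had no cluster within 500 nt, over the same distances. There the densities were 16.0 and 15.9 per 1000, and the folds became 2.93 for NOVA1 and 2.79 for NOVA2. After exons the folds over flanks were 2.95 (2.64 to 3.302) and 2.87 (2.75 to 3.01). Deep in introns they were 3.12 (3.01 to 3.23) and 2.55 (2.51 to 2.58).

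A YCAY was present in 201 of 202 NOVA1 and 1087 of 1093 NOVA2 members, and at least 3 in 87.1% and 85.9%. Deep intron clusters were much the same. At least 1 was present in 99.4% of NOVA1 and 99.6% of NOVA2 deep clusters, and at least 3 in 88.7% and 85.1%. The median was 5 per cluster in both lists, before exons and deep in introns. The density in NOVA2 members was 39.4 per 1000 in the 59 clusters centred in the last 50 nt and between 43.0 and 44.5 in the bins farther out. NOVA1 members varied between 44.8 and 47.3. YCAY in the clusters was thus about as dense near the splice site as 350 to 500 nt away. Tetramers were ranked by enrichment over flanks, leaving out those rarest in the flanks. UCAU came first in both lists, at 21.8 per 1000 in NOVA1 and 19.3 in NOVA2 members (log2 enrichment 2.01 and 1.92). In the NOVA2 list CAUC ranked next (log2 1.67), then CAUU (1.50), both of which begin with the CAU of that motif. In the NOVA1 list the next were CGUC (1.95, with 36 occurrences), ACCG (1.72, with 20) and UCGU (1.69, with 39), which are rare, and CAUC was the fifth (1.61, with 334). Tetramers of pyrimidines varied. UUUC had a log2 enrichment of 0.56 in NOVA1 and 0.85 in NOVA2 members and UCUC of 0.94 and 0.65, while CUCU stood at 0.09 and 0.14 and UUUU at -0.46 and -0.10.

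In pyrimidine content, the splice sites themselves differed little from those of exons without a cluster. Pyrimidines made up 66.5% of the last 30 intron nt before NOVA1-bound and 66.0% before NOVA2-bound exons, against 64.9% before the other exons of the same genes in both cases. A YCAY within these 30 nt was present at 489 of 1001 NOVA2-bound exons (48.9%, 45.8 to 51.9) and 40.9% (40.1 to 41.6) of 16777 without a cluster. For NOVA1 the shares were 48.9% (41.9 to 56.0) and 42.1%. The introns were longer, with medians of 2403 nt before NOVA1-bound and 2424 nt before NOVA2-bound exons against 1646 and 1593 nt.

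**Figure D4:**
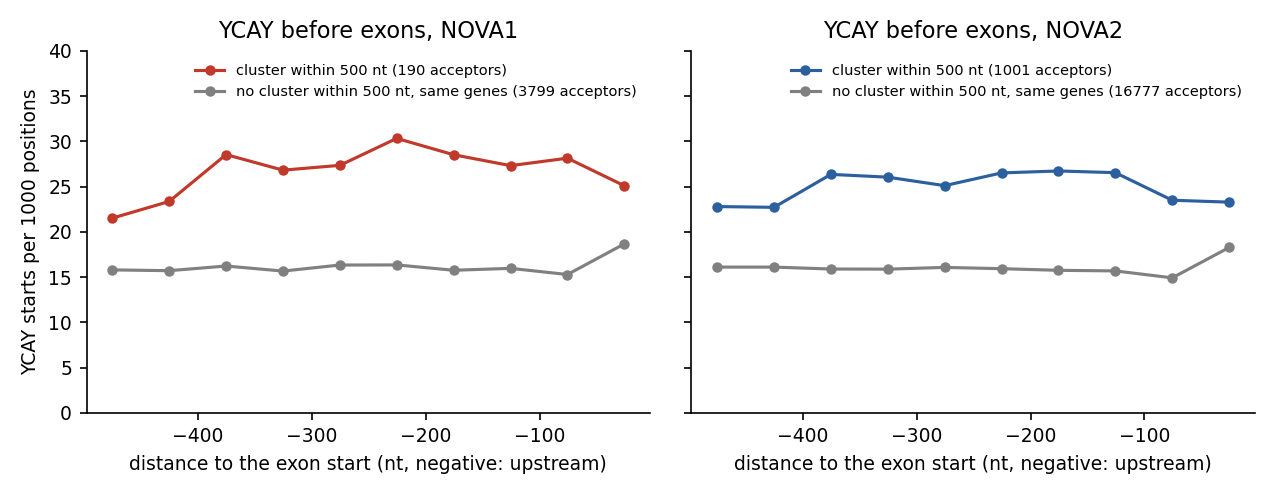
YCAY starts per 1000 positions (vertical axis) in 50-nt bins before the exon start (horizontal axis, nt, negative upstream), for NOVA1 on the left and NOVA2 on the right. Coloured lines are exon starts with a member (190 and 1001) and grey lines exon starts of the same genes without a cluster within 500 nt (3799 and 16777). The coloured lines lie above the grey ones in each bin, with 26.7 and 24.97 per 1000 over the whole 500 nt against 16.2 and 16.1.

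Exons that followed a member were more often annotated as alternative. An exon was counted as skipped when it lies wholly inside an intron of another transcript of its gene, which is a property of the annotation and not a measurement of splicing in this cortex. Last exons of a transcript that lie so were counted too, as the 139-nt exon of Nrxn3. The shares by distance, tags and gene group below include them, and those for internal coding exons do not. Of 190 exon starts with a NOVA1 member, 60 were skipped (31.6%, 25.4 to 38.5), against 563 of 3799 without a cluster in the same genes (14.8%). Of 1001 with a NOVA2 member, 284 were skipped (28.4%, 25.7 to 31.2), against 2344 of 16777 (14.0%). The ratios were 2.13 (1.67 to 2.71) for NOVA1 and 2.03 (1.79 to 2.30) for NOVA2. Exons with a cluster just after them had similar shares, 32.6% and 25.8%, and the difference between binding before and after was not tested. Among internal coding exons alone the ratios were 2.54 (1.93 to 3.35) and 2.23 (1.91 to 2.60). In each class of upstream intron length the share stayed above that of the exons without a cluster, at 27.2%, 27.6% and 35.7% for NOVA2 against 13.5%, 14.1% and 16.4%, from introns under 2000 nt to those over 10000 nt.

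The share was highest for the clusters closest to the exon. Of 160 NOVA2 members centred within 100 nt, 89 lay before a skipped exon (55.6%, 47.9 to 63.1). From 100 to 200 nt it was 26.8%, from 200 to 350 nt 26.6%, and from 350 to 500 nt 52 of 270 (19.3%, 15.0 to 24.4). The ratio of the nearest to the farthest bin was 2.89 (2.19 to 3.80). NOVA1 had 51.4% of 37 members in the nearest bin and 8 of 40 in the farthest, a ratio of 2.57 (1.31 to 5.04), with 23.9% and 37.9% between them. Clusters close to an exon can reach into it and remain mostly intronic. Of the members, 16 NOVA1 and 96 NOVA2 clusters did so, before exons of a median length of 104.5 and 101 nt. Without these, 29 of 72 NOVA2 members in the nearest bin lay before a skipped exon (40.3%, 29.7 to 51.8), and the ratio was 2.09 (1.46 to 2.998). For NOVA1 the ratio without them was 1.90 (0.849 to 4.27), an interval that holds 1. Before exons longer than 60 nt the NOVA2 shares were 48.0% of 123 in the nearest and 15.8% of 234 in the farthest bin.

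**Figure D5:**
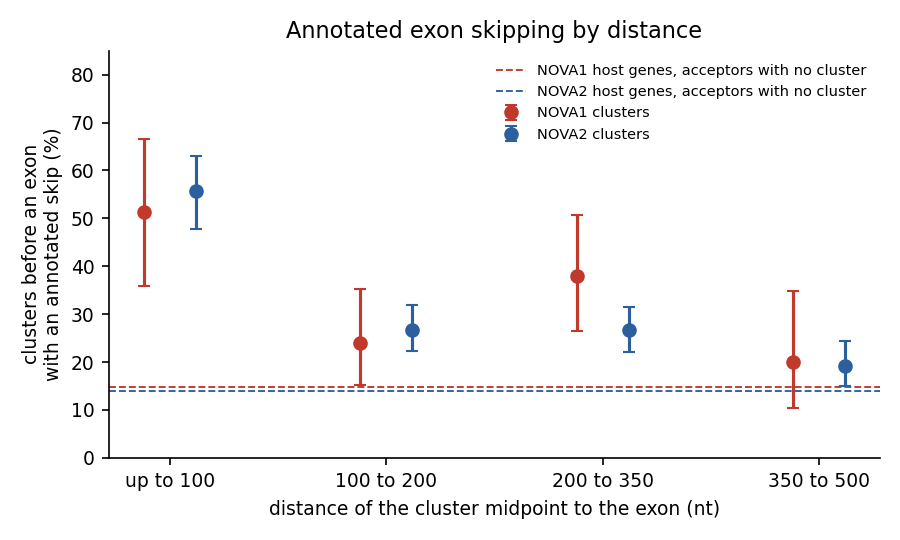
Share of members that lie before an exon with an annotated skip (%, vertical axis) in 4 bins of distance to the exon (nt, horizontal axis). Points are NOVA1 (red) and NOVA2 (blue) members, bars are Wilson 95% intervals, and dashed lines are the shares among exon starts of the same genes without a cluster (14.8% and 14.0%). Members within 100 nt stand highest, at 51.4% and 55.6%.

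The share also grew with tags in the NOVA2 list. It was 24.54% of 546 members with 10 to 19 tags, 31.4% of 350 with 20 to 49 and 37.6% of 197 with 50 or more. The ratio of the last to the first class was 1.53 (1.21 to 1.94). In the NOVA1 list it was 28.4% of 134 members with 10 to 19 tags and 6 of 9 members with 50 or more, a ratio of 2.35 (1.39 to 3.97). NOVA2 members with and without a NOVA1 partner had 33.5% and 28.1%, a difference that was not tested.

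Skipped exons after a member more often had a length that leaves the reading frame intact. Among skipped internal coding exons, the length was a multiple of 3 in 163 of 221 with a NOVA2 member (73.8%, 67.6 to 79.1) and in 977 of 1744 without a cluster (56.0%), a ratio of 1.32 (1.19 to 1.45). For NOVA1 it was 38 of 50 (76.0%) against 61.2%, a ratio of 1.24 (1.01 to 1.52). Among internal coding exons without an annotated skip the shares were 38.9% with a NOVA2 member and 39.4% without a cluster, so the difference was seen in the skipped exons. NOVA1-bound exons without a skip had 34.3% of 108 against 39.8%.

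Very short exons were more frequent behind NOVA2 members. Exons of at most 30 nt, known as microexons, made up 45 of 856 internal coding exons with a NOVA2 member (5.26%, 3.95 to 6.96) against 346 of 15066 without a cluster (2.30%). The ratio was 2.29 (1.67 to 3.14). With a NOVA1 member there were 8 of 158 (5.06%) against 3.41%, a ratio of 1.48 (0.676 to 3.26) whose interval holds 1. Of the 45, 38 have an annotated skip (84.4%, 71.2 to 92.3) and 39 a length that is a multiple of 3 (86.7%, 73.8 to 93.7), against 60.4% and 65.3% of the microexons without a cluster. A microexon leaves a cluster over it mostly intronic, so such clusters pass the rule where a cluster over a longer exon would not. In 11 NOVA2 members and 1 NOVA1 member the cluster covered the whole exon, of 6 to 81 nt.

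Several of the named members lay at microexons. In Cacna1b, the pore-forming subunit of the N-type calcium channel, a NOVA2 cluster of 353 tags (chr2:24498293-24498760) ran across a 6-nt exon at chr2:24498373-24498378. NOVA1 had 2 clusters there, of 29 tags before the exon and 15 tags across it. In Clasp2, a protein of microtubule plus ends, 3 microexons of 24, 27 and 27 nt had members. Its strongest, of 145 NOVA2 and 50 NOVA1 tags, lay 264 nt before one of the 27-nt exons in the NOVA1 list and 263 nt before it in the NOVA2 list. These exons are all skipped in some annotated transcript.

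Binding on both sides of an exon was uncommon. Of 906 internal exons with a NOVA2 member, 48 also had a NOVA2 intron cluster within 500 nt after them (5.30%, 4.02 to 6.95), against 2.58% of 15678 internal exons of the same genes without a cluster before them. The ratio was 2.05 (1.52 to 2.77). With at least 25 NOVA2 tags the share was 3.31% against 1.44%, a ratio of 2.29 (1.18 to 4.44). For NOVA1 it was 5 of 168 against 1.10%, with a ratio of 2.71 (0.930 to 7.90) whose interval holds 1. Of the 48 exons, 30 have an annotated skip (62.5%, 48.4 to 74.8), against 25.6% of the 858 with a member and no cluster after them, a ratio of 2.44 (1.92 to 3.10). Clasp2 had 3 exons of this kind in the NOVA2 list, with 73, 36 and 167 tags after them. In Nova1 itself, a 72-nt exon had 27 NOVA1 and 53 NOVA2 tags before it, and both proteins also had clusters after it. Others, chosen after their values were seen, were Snap25, a SNARE protein of synaptic vesicle release, with 69 NOVA2 tags 18 nt before a 118-nt exon, Nf1, a Ras regulator, with 54 before a 63-nt exon, and Rims1, an active zone protein, with 29 before a 63-nt exon.

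Some genes held several members. Ptprd, a presynaptic receptor phosphatase, had the most, with 12 NOVA2 members of 19 to 387 tags before 8 exons of 12 to 833 nt. The highest of them lay 232.5 nt before a 307-nt exon and had a NOVA1 partner of 45 tags. Clasp2 had 7 NOVA2 members. Before a single exon there were at most 3. In Spna2, which encodes a spectrin of the membrane skeleton, 3 NOVA1 clusters of 14, 31 and 17 tags lay under a NOVA2 cluster of 274 tags that spanned 498 nt. Ptbp2, the neuronal polypyrimidine tract-binding protein, had 147, 37 and 43 NOVA2 tags in 3 clusters before its 34-nt exon, and Herc1, a ubiquitin ligase, had 11, 56 and 13 before a 115-nt exon. In total 11 exon starts had 2 or more NOVA1 members and 86 had 2 or more NOVA2 members.

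The members were spread over gene groups to different degrees, and the order depended on what they were counted against. Of 3493 NOVA2 intron clusters in synaptic and neuronal adhesion genes, 51 were members (1.46%, 1.11 to 1.91), below the 4.005% of all NOVA2 intron clusters. Counted over exon starts of genes with an intron cluster, 42 of 1324 in these genes had a member (3.17%, 2.36 to 4.26), above the 1.48% of 67724 over all genes. Adhesion genes thus held many intron clusters far from exons and also many before them. In genes of ankyrins, spectrins, scaffolds and microtubule proteins, members made up 61 of 904 NOVA2 intron clusters (6.75%, 5.29 to 8.57) and lay at 54 of 1858 exon starts (2.91%, 2.23 to 3.77). Channels and receptors had 34 of 1440 clusters (2.36%) and 1.97% of exon starts, RNA-binding splicing regulators 20 of 654 (3.06%) and 2.92%, axon guidance genes 13 of 624 (2.08%) and 1.75%, and kinases, phosphatases and GTPase regulators 29 of 953 (3.04%) and 1.21%. In the NOVA1 list, where 5.02% of all intron clusters were members, the shares were 14 of 153 in the membrane skeleton group (9.15%, 5.53 to 14.8), 11 of 148 in the kinase group (7.43%, 4.201 to 12.8) and 16 of 642 in adhesion genes (2.49%, 1.54 to 4.01). They were 5 of 136 in RNA-binding regulators, 6 of 237 in channels and 3 of 78 in guidance genes.

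The groups also differed in the exons that followed. A skipped exon stood after 30 of 51 NOVA2 members in adhesion genes (58.8%) and after 36 of 61 in the membrane skeleton group (59.0%). Over all NOVA2 members it was 29.1%. It stood after 11 of 34 in channels, 4 of 20 in RNA-binding regulators, 3 of 13 in guidance genes and 5 of 29 in the kinase group. Transcripts of different genes are annotated in different depth, and the part of that in these shares was not tested. In the membrane skeleton group the highest NOVA2 member was in Clip1, a microtubule plus-end protein, with 469 tags 222 nt before a skipped exon of 33 nt, and the highest NOVA1 member was in Mtap2, the dendritic microtubule-associated protein, with 54 NOVA1 and 116 NOVA2 tags before a skipped 246-nt exon. Among channels, Grik1, a kainate receptor subunit, had 27 NOVA1 and 105 NOVA2 tags before a skipped 87-nt exon. Among RNA-binding proteins, Ptbp2 had 20 NOVA1 and 151 NOVA2 tags before a 196-nt exon without an annotated skip.

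In 9 genes whose splicing the study examined, 11 of 256 NOVA2 intron clusters were members (4.30%, 2.42 to 7.53), close to the 4.005% over all genes, and 4 of 39 NOVA1 intron clusters (10.3%, 4.06 to 23.6), against 5.02%. The tallest was in Arhgef12, a guanine nucleotide exchange factor of plexin signalling, with 206 and 11 NOVA2 tags and 35 and 14 NOVA1 tags before a 57-nt exon (chr9:42848623-42848679). Rock1, a kinase of the actin cytoskeleton, had NOVA2 members of 17, 138 and 22 tags, and a NOVA1 member of 32 tags under the tallest. Agrn, which encodes agrin, had 26 NOVA2 and 15 NOVA1 tags before a 33-nt exon at chr4:155541886-155541918, the only exon of this list that the annotation shows as skipped. The annotated skip gives no direction of regulation by NOVA. In the paper's Agrn minigene test both proteins promoted inclusion of the alternative exon, and whether that is this exon was not checked. The NOVA2 members in Dcc, the netrin receptor, Neo1, a relative of Dcc, Epha5, an ephrin receptor, and Ppp3cb, a calcineurin subunit, had 20, 14, 14 and 11, and 12 tags, at or below the median of NOVA2 members, and had no NOVA1 partner. The paper measured changed splicing in cortex without NOVA2 at exons of Arhgef12, Rock1, Dcc, Neo1, Epha5 and Ppp3cb. Whether the exons named here are those exons was not checked, and an exon without an annotated skip may still be skipped in this cortex. Among guidance genes, Robo1, a receptor for Slit proteins, had members before 2 exons, with 159 NOVA2 and 16 NOVA1 tags before a 206-nt exon and 57 and 20 before a 1970-nt exon.

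In 10 genes long known as NOVA targets, 8 of 233 NOVA2 intron clusters were members (3.43%, 1.75 to 6.63), no higher than over all genes, and 6 of 50 NOVA1 intron clusters (12%, 5.62 to 23.8). A skipped exon followed 6 of the 8 and 5 of the 6, against 29.1% of all NOVA2 and 32.2% of all NOVA1 members. Beside Cacna1b and Agrn, the highest was in Dab1, the adaptor that carries the reelin signal, with 251 NOVA2 and 45 NOVA1 tags over nearly the same span (222 and 221 nt wide). Both clusters reached into a 51-nt exon (chr4:104386227-104386277) that is skipped in another transcript, with 16 YCAY in each. As these genes were chosen as known NOVA targets, their counts, also those of skipped exons, are a description.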

How the data were processed

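The data were lists of CLIP clusters for NOVA1 and NOVA2 in E18.5 mouse cortex, 3 libraries per protein. The authors aligned reads to mm9 with Novoalign, per the labels and the submitters' processing notes, collapsed PCR duplicates, clustered tags by strand and kept clusters with tags from at least 2 libraries. The deposited count per cluster is pooled over libraries, is at least 10 and is not scaled. The paper describes the minimum of 10 both as tags and as peak height, and which of these the deposited count holds is not stated. The lists do not give the depth of the libraries, and the paper reports more unique tags for NOVA2 than for NOVA1.

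Clusters were classed by the majority of their nucleotides on their strand against GENCODE vM1 (NCBIM37, the mm9 assembly, with 0 clusters past a chromosome end), in the order coding sequence, UTR, noncoding exon, intron. Retained-intron transcripts were left out. Shares carry Wilson 95% intervals. YCAY folds and ratios of shares carry 95% intervals from the variance between genes (Taylor linearization). No p-value was computed, since clusters are not replicates. Flanks lay 200 to 500 nt upstream of the cluster end farther from the exon. Deep intron clusters had no exon edge within 500 nt of their midpoint.

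The members, gene lists and alternatives were chosen with earlier results of these data known, and the ratios of shares after the data were seen. Clusters named were the 5 highest of each list, the 5 highest without partner, the 2 highest of each gene list, all in the study's genes, and the 3 genes and 3 exons with most members, with not each described and some not reported here. Alternatives were other tag minimums, distances, overlaps, flanks and transcript sets. The functions were tested on simulated data. Python 3.11.15, NumPy 2.4.6, pandas 2.3.3, SciPy 1.17.1, pysam 0.24.0 and matplotlib 3.10.9 were used.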

Additional observations from a re-analysis of the deposited data

How the results depend on the processing

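Of 50 alternatives to 13 results, 32 moved the value by less than its counting error and 18 by more. The ratios of members to their comparison group (overlap against deep clusters, annotated skip and clusters on both sides against exons without a cluster, 6 in all) were also rerun, chosen after seeing the data. Of 22 reruns, 21 kept the direction, and the interval held 1 in the same comparisons as before. For clusters on both sides of NOVA1 exons within 200 nt there was no ratio. No paired analysis was possible because the counts were pooled over libraries, and for the same reason no library could be left out. With at least 20 tags in both lists, the NOVA1 median distance was 230.25 nt, NOVA2 members were 3.22% of clusters, 12.2% of them overlapped NOVA1 and 33.0% of their exons were skipped. Within 200 nt of the exon, members were 1.04% of NOVA1 and 1.33% of NOVA2 clusters, a shorter window by construction, with 36.1% of NOVA2 exons skipped and 0% of NOVA1 exons bound on both sides. With at least 25 NOVA2 tags, members were 3.25% of NOVA2 clusters, 39.2% of them overlapped NOVA1, 83.2% of NOVA1 members overlapped NOVA2, 35.3% of NOVA2 exons were skipped and 3.31% had clusters on both sides. Retained-intron transcripts lowered the NOVA2 share to 2.81%, and protein-coding transcripts alone gave 24.3% skipped. In alternatives chosen after seeing the data, exons longer than 60 nt gave 24.7% skipped for NOVA1 and 22.1% for NOVA2, and members that did not reach into the exon 24.97% for NOVA2. Except for the shorter window, the cause was not tested. The YCAY folds and the tag ratio moved by less than their counting error under all alternatives run. What limits these data is the pooled count without a value per library.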
